A study of Rattus norvegicus with 42 samples.

Results

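Binding of the glucocorticoid receptor (GR) in rat liver was compared between the peak and the nadir of a corticosterone (CORT) pulse. The 4 GR ChIP-Seq libraries of the pulsatile infusion, of 42 samples in the series, were used, namely the 2 libraries taken at 140 min (PEAK_140) and the 2 taken at 180 min (NADIR_180). Every region listed for GR was included, which are 1918 intergenic, 1534 intronic, 333 promoter, 108 exonic and 88 transcription end regions on 22 chromosomes, with 2736 different nearest genes. All animals were adrenalectomised male Sprague Dawley rats, which lack their own source of CORT and which had received dexamethasone after surgery and CORT in their drinking water until a washout before the infusion. In PEAK_140 and NADIR_180, CORT was infused for 20 min in every 60 min, so that 140 min fell at the end of the third infusion and 180 min fell 40 min after it had stopped. Constant CORT (CONS_140 and CONS_180, 2 libraries each) and vehicle (VEH, 1 library at each of the 2 times) were used for comparison and for the spread shared by all groups in the fit. Each library was a pool of livers from 6 rats, so the spread between libraries is that of pools and not of single animals.

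GR is a transcription factor that stays outside the nucleus until it binds its hormone. Hormone-bound GR then moves into the nucleus and occupies enhancers and promoters, often at a palindrome of 2 half-sites, AGAACA and TGTTCT, set 3 bases apart, and it leaves again when the hormone is cleared. In hepatocytes GR is best known for raising genes of gluconeogenesis and amino acid breakdown, for tuning lipid and clock genes, and for holding back inflammatory signalling. The question asked here was which sites kept GR and which lost it between the pulse peak and the nadir.

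GR elements that the study's motif search placed in some of the sites named below are shown first. They can be set beside the GR values of the same sites. Capitals mark the half-sites and lower case the 3 spacer bases, all 5′ to 3′. The study's 12-letter motif matched both strands of each of the following elements. They lie at sites that still carried GR at the nadir, apart from the last, whose site lost most of its signal. The falls at Mt2A (2.70) and Cdkn1a (2.60) were close to the median of 3.20 over all regions. Elements matched on both strands but not shown lie near Cps1 (fall of 4.62), Nr0b2 (3.68), Got1 (3.29), Arntl (3.15) and Hspa8 (2.74). At Cps1 and Hspa8, 1 nadir library had no signal left, so the elements shown are a selection.
AABR07004100.2, 20.0 kb before the gene start: GGAACAgcaTGTTCT
As3mt, 0.568 kb before the gene start: GGAACTggaTGTTCT
AABR07034573.1, 15.6 kb before the gene start: AGTACAttcTGTTCC
Zfp788, 17.5 kb before the gene start: GGAACAgcaTGTCCC
Per1, 3.32 kb before the gene start: AGAACAcgaTGTTCC
Mt2A, 1.26 kb before the gene start: AGGACAggcTGTCCT
Cdkn1a, 0.923 kb after the gene start: GGCACAgtaTGTTCC
Fkbp5, 1.34 kb before the gene start: AGAACAagcTGTTCT
The next 3, matched on 1 strand only, lie at sites among the 12 largest falls and are likewise a selection. Matches on 1 strand that are not shown lie near Nfkbia (fall of 6.04), Hsd11b1 (4.34), Dusp1 (3.80), Ahcy (2.98) and Rora (2.94). Others lie near Zfp36 (2.75), Apof (2.74), Tsc22d3 (2.47) and Akr1c1 (2.27), so such a match was found at smaller falls too.
Insig1, 22.7 kb before the gene start: AGAACTgtcTGT
AABR07043012.1, 100 kb before the gene start: AGGACAtccAGT
AABR07072515.1, 17.6 kb after the gene start: AGAACTctgTGT
Set against the 12 half-site letters of the full palindrome, the Fkbp5 element had 12 equal letters, those of AABR07004100.2 and Per1 had 11, those of As3mt, AABR07034573.1 and Mt2A had 10, and those of Zfp788 and Cdkn1a had 9. No element was matched at the sites near Klf9 and Relt.

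The values are log2 tag values as deposited, after the authors' subtraction of input tags, and differences are PEAK_140 minus NADIR_180 on that scale. Total tags were 2051977 and 2568317 in the PEAK_140 libraries, 2556380 and 3026250 in the NADIR_180 libraries and 3236498 to 6715803 in the others. The 2 NADIR_180 libraries stood apart from each other, with medians over regions of 1.33 and -0.48, against 4.04 and 3.69 in PEAK_140, -0.65 and -0.86 in VEH and 2.99 to 3.73 under constant CORT. Where no tag was left after input subtraction, the values settle on a floor between about -1.5 and 0. NADIR_180 replicate 1 was at that floor in 33.9% of regions and replicate 2 in 62.7%, against 6.41% and 10.9% in PEAK_140 and 61.3% and 68.4% in VEH. A difference from a floor value depends on how the authors' transform treats 0 tags and is no bound on the loss of GR. Because most regions fell together, a comparison of levels as given and a comparison relative to the median region ask different things, and both are given: the library medians differed by 3.44 and the 75th percentiles by 3.10 between the groups, which is the shift removed by centring. The order of regions by their difference is the same in both.

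The label of liver was checked on the elongating form of RNA polymerase II (pSer2 Pol2) in the pulsatile libraries. The 10 hepatocyte markers had a median log2 value of 11.38, and all 10 were above the median gene at 2.31. Markers of Kupffer cells (median 4.13), sinusoidal endothelial cells (2.45), stellate cells (0.66) and cholangiocytes (-1.51) were lower, and the list medians of the 4 pulsatile libraries lay within 0.62 of each other.

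GR was higher at PEAK_140 than at NADIR_180 across most of its sites. The median difference over all regions was 3.20, with quartiles of 2.08 and 4.13 and a median standard error of 0.89, and 92.5% of regions had a difference above 0. As whole liver was used, GR lost from fewer cells and GR lost in part from every cell cannot be told apart. In 3258 regions (81.8%) both PEAK_140 libraries exceeded both NADIR_180 libraries. By limma, with Benjamini-Hochberg adjusted p under 0.05 and a change of over 1.5-fold, 2739 regions (68.8%) were higher at PEAK_140 and 18 (0.452%) were lower. The direction of this split depends on the scaling to total tags: relative to the median region, 32 regions (0.804%) fell more and 184 (4.62%) fell less, and after quantile normalization 253 were higher and 216 lower. Both NADIR_180 libraries were at the floor in 1056 regions (26.5%), 1 of them in 1736 and neither in 1189. With 2 libraries a group, an exact permutation test cannot go below p = 0.333, so the calls rest on the spread that limma shares across regions, and that spread is one between pools. The count of regions that were higher dropped to 1726 without PEAK_140 replicate 1, and the limma count that fell more than the median region was 227 without NADIR_180 replicate 2 and 0 without either PEAK_140 library, with 160 and 112 regions then at an unadjusted p under 0.05.

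**Figure D1:**
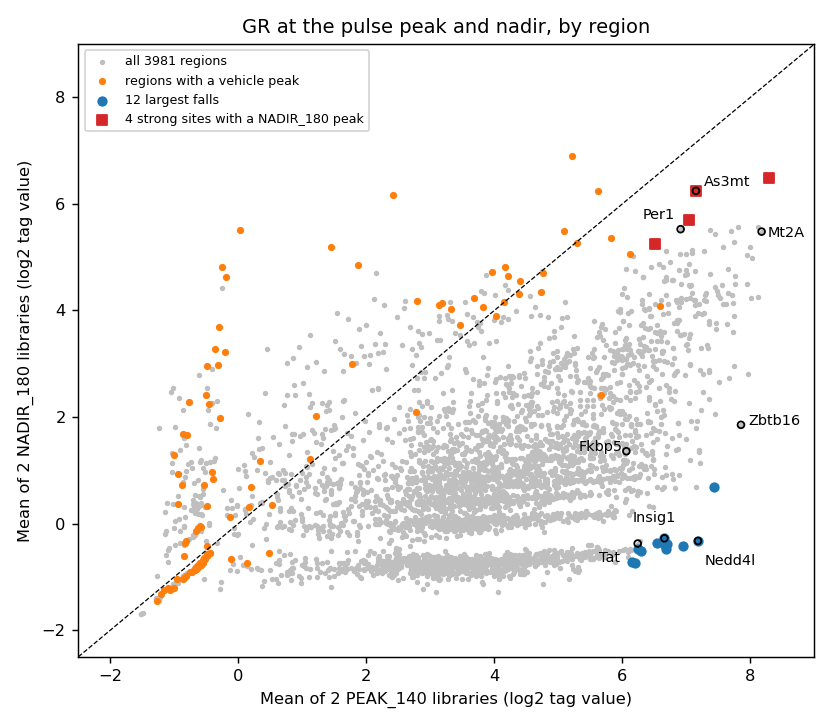
Each point is 1 GR region, with the mean log2 tag value of the 2 PEAK_140 libraries on the x axis and that of the 2 NADIR_180 libraries on the y axis, and the dashed line marks equal values. Most points lie below the line, the 12 largest falls (blue) end at or near the nadir floor, and 4 strong sites (red squares) stay above 5 at the nadir. Regions that also have a vehicle peak (orange) mostly lie along or above the line, with some, such as As3mt, below it.

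The largest falls were at distal sites that went from strong binding to the floor. The largest was in an intron of Nedd4l, which encodes a ubiquitin ligase that removes sodium channels from the cell surface, at chr18:60595151-60595776 (rn6, as are all region coordinates). Its PEAK_140 values were 7.14 and 7.21 and its NADIR_180 values were -0.41 and -0.24, a difference of 7.50 ± 0.45 (SE; adjusted p = 0.000179). VEH was at -0.49 and -0.69, 0.26 below the mean of the nadir libraries, whereas constant CORT held 6.36 and 6.47 at 140 min and 6.06 and 6.52 at 180 min.

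A site in an intron of Igf1, the growth factor that the liver secretes in response to growth hormone, followed at chr7:28451666-28452291. It went from 7.10 and 6.81 to -0.51 and -0.33, a difference of 7.37 ± 0.52 (adjusted p = 0.000179), and fell by 3.93 more than the median region (adjusted p = 0.0112). The site 22.7 kb before Insig1 (chr4:319284-319909) went from 6.69 and 6.63 to -0.37 and -0.19, a difference of 6.93 ± 0.55. Insig1 encodes an anchor that keeps the activator of sterol synthesis genes in the endoplasmic reticulum. At this site VEH was higher than the nadir libraries, at 1.93 and 0.53.

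An intronic site of Ece1, which encodes the endothelin-converting enzyme, fell from 7.67 and 7.19 to 1.55 and -0.17 (chr5:156296831-156297456), and was the only one of the 12 largest falls with a nadir library above the floor. The site 9.59 kb after the start of Pmp2, a myelin lipid carrier, had weaker GR under constant CORT. It had 6.30 and 6.11 at PEAK_140 and -0.82 and -0.65 at NADIR_180, while CONS_140 held 3.41 and 1.15 and CONS_180 held 4.64 and 3.57. Near Relt, a receptor of the tumour necrosis factor family, PEAK_140 was at 5.83 and 6.47, CONS_140 at 4.28 and 4.39 and CONS_180 at 3.03 and 1.76. Together with Relt, the sites near AC112030.1, AABR07043012.1, AABR07027072.1, AABR07072515.1, RF00560 and B630019K06Rik completed the 12, and these 7 had differences of 6.72 to 7.16. Being called higher at PEAK_140, with both PEAK_140 libraries above both NADIR_180 libraries, was the condition for entering these 12. Without single libraries their differences ran from 5.88 to 7.60.

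The 32 regions that fell more than the median region had PEAK_140 means of 5.63 to 7.43. All 32 overlapped a peak of the PEAK_140 list, none overlapped a VEH peak and none was at a promoter, while 22 were intergenic and 8 intronic. Over all regions, 3209 overlapped a PEAK_140 peak and 116 a VEH peak. The 926 regions with a PEAK_140 mean over 5, which hold all 32, were intergenic in 466 cases, intronic in 360 and at promoters in 62. The difference contains the PEAK_140 mean, so the overlap with the PEAK_140 list is partly given by the choice of regions. Both NADIR_180 libraries were at the floor in 22 of them, and limma called 0 regions as falling more when only the 1189 regions with no nadir library at the floor were tested, with 17 at an unadjusted p under 0.05.

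**Figure D2:**
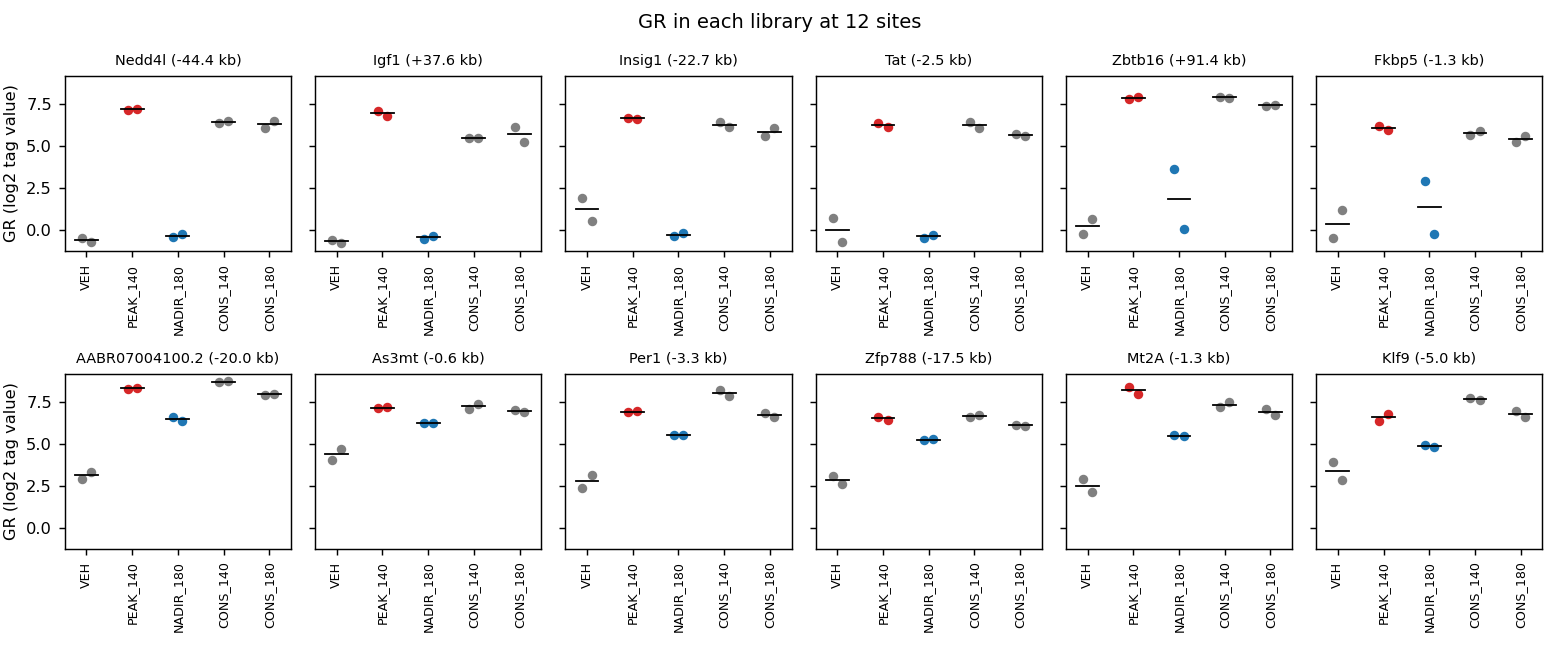
GR in each of 10 libraries (points; log2 tag value on the y axis, group mean as a bar) at 12 sites, named by nearest gene and distance to its start. In the top row the NADIR_180 points (blue) drop to or towards the VEH level, with 1 library of Zbtb16 and of Fkbp5 staying above it, and in the bottom row both NADIR_180 points stay above VEH and below PEAK_140 (red).

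Few strong sites kept a GR mean above 5 at the nadir, although most had some signal left. Among regions with a PEAK_140 mean over 6, neither nadir library was at the floor in 63.4% to 90%, by class of GR element match. Of 392 regions with a PEAK_140 mean over 6, 23 had a NADIR_180 mean over 5, and 4 overlapped a peak of the NADIR_180 list. The strongest was intronic, 20.0 kb before the gene AABR07004100.2 (chr1:124775856-124776481). Its PEAK_140 values of 8.28 and 8.31 were followed by 6.58 and 6.37 at NADIR_180, a difference of 1.82 ± 0.22 (adjusted p = 0.00041), and VEH was at 2.92 and 3.33. The groups did not overlap, and the nadir libraries were 3.36 above vehicle on average.

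The promoter of As3mt, which encodes an arsenic methyltransferase, was picked after its values were seen (chr1:266481972-266482608). It went from 7.13 and 7.17 to 6.25 and 6.24, a difference of 0.90 ± 0.28 (adjusted p = 0.0197), and it already had a VEH peak, at 4.05 and 4.70. Leaving out any 1 of the 4 libraries raised its adjusted p to between 0.0675 and 0.0873. The sites near AABR07034573.1 (7.10 and 7.0, then 6.10 and 5.30) and Zfp788, a zinc finger gene (6.59 and 6.43, then 5.20 and 5.29), completed the 4, with differences of 1.35 ± 0.33 and 1.26 ± 0.31. Without NADIR_180 replicate 2 the first of these was 0.95 and no longer called (adjusted p = 0.056). In all 4, constant CORT was at 6.07 or more in each library.

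None of these 4 sites passed the test of falling less than the median region, for which adjusted p ran from 0.072 to 0.226. The 184 regions that did pass it were mostly weaker. Beside 4.62% of all regions, 1.71% of PEAK_140 peak regions and 9.61% of promoter regions passed. Of regions with a VEH peak, 40.4% passed where a NADIR_180 peak was also present and 26.1% where it was not. Of the 184 regions, 73 had a PEAK_140 mean under 1 and 51 had both PEAK_140 libraries at the floor. A PEAK_140 peak was overlapped by 55 and a VEH peak by 37, and 32 were at promoters. The count was 14 without PEAK_140 replicate 2, 56 without PEAK_140 replicate 1 and 109 without NADIR_180 replicate 2.

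Classical GR targets had differences from -1.80 to 6.61, beside -5.48 to 7.50 over all regions. Of their 52 regions, near 15 of the 22 listed genes, 40 (76.9%) were higher at PEAK_140, beside 68.8% of all regions, and none was lower; the median difference was 3.22, beside 3.20 over all regions. Relative to the median region, 2 fell more and none fell less. The strongest region of each of the 15 genes is described, from those that lost the most GR to those that lost the least, with like genes kept together.

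Tat encodes tyrosine aminotransferase, the first enzyme of tyrosine breakdown and a long-used marker of glucocorticoid action in liver. GR went to the floor at the strongest of the 6 regions nearest to Tat. The site 2.49 kb before its start (chr19:41688402-41689032) went from 6.34 and 6.13 to -0.46 and -0.29, a difference of 6.61 ± 0.58 (adjusted p = 0.000217), with VEH at 0.72 and -0.73. It also fell more than the median region, by 3.18 (adjusted p = 0.0263). The site near Nfkbia, the inhibitor of NF-kB, also went to the floor, from 5.88 and 5.31 to -0.53 and -0.36 (6.04 ± 0.54), but did not pass the test of falling more than the median region (adjusted p = 0.0622).

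In an intron of Zbtb16, which encodes a zinc finger transcription factor, GR was at 7.80 and 7.91 at PEAK_140 and at 3.65 and 0.06 at NADIR_180 (chr8:53055202-53055827; 6.00 ± 0.94, adjusted p = 0.00105). The 2 nadir libraries here lay 3.59 apart, with replicate 2 at the floor. The same split was seen before the start of Fkbp5, the co-chaperone that lowers the affinity of GR for its hormone. Its values of 6.18 and 5.94 were followed by 2.92 and -0.21, a difference of 4.70 ± 0.96 (adjusted p = 0.00324). Dusp1, a phosphatase of MAP kinases, had 3.47 and -0.21 at the nadir after 5.48 and 5.38, and its difference of 3.80 dropped to 1.96 without NADIR_180 replicate 2. The call of Dusp1 was lost without that library and without either PEAK_140 library.

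Ddit4, an inhibitor of mTORC1 (4.98 and 4.59, then -0.57 and 1.71), and Pdk4, the kinase that shuts off pyruvate dehydrogenase (3.94 and 4.12, then 0.69 and -0.57), were likewise higher at the peak, by 4.21 and 3.97. Bcl6, a transcriptional repressor, went from 4.29 and 2.83 to the floor (4.49 ± 1.40). The calls of Pdk4 and Bcl6 were each lost when some single libraries were left out, with adjusted p of 0.0594 to 0.116.

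At the sites of the remaining 7 genes neither nadir library was at the floor and both were above both VEH libraries, and none of these sites passed the test of falling less than the median region. Errfi1, a brake on the EGF receptor, went from 6.57 and 6.32 to 3.90 and 2.95 (3.02 ± 0.66). Mt2A, a metallothionein, had one of the strongest sites, at chr19:11309691-11310316, with 8.40 and 7.94 followed by 5.51 and 5.45 (2.70 ± 0.34, adjusted p = 0.000496) and VEH at 2.90 and 2.13. An intronic site of Cdkn1a, the cell cycle inhibitor p21, had 7.08 and 7.07, then 4.40 and 4.56 (2.60 ± 0.31).

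Klf9, a transcription factor gene induced by glucocorticoids in many tissues, went from 6.36 and 6.78 to 4.95 and 4.80, a difference of 1.69 ± 0.39 (adjusted p = 0.00586), with VEH at 3.94 and 2.83. Per1, a repressor of the circadian clock, had the smallest called difference of the list. Its site at chr10:55683421-55684046 had 6.88 and 6.94 at the peak and 5.51 and 5.54 at the nadir, a difference of 1.38 ± 0.33 (adjusted p = 0.00633), and VEH was at 2.38 and 3.17. The groups did not overlap at either site, and the nadir libraries of Per1 lay within 0.03 of each other.

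At the promoter of Tsc22d3, which encodes the anti-inflammatory protein GILZ, GR fell from 4.60 and 4.74 to 2.66 and 1.75 (2.47 ± 0.82, adjusted p = 0.0251), a call lost without either PEAK_140 library or NADIR_180 replicate 2. Sgk1, a kinase that raises sodium uptake, was the only one of the 15 not called, with 3.92 and 3.61 at the peak and 3.10 and 2.24 at the nadir (1.09 ± 0.80, adjusted p = 0.247).

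The 18 regions that were lower at PEAK_140 were of another kind. At 17 of them the VEH mean was above the PEAK_140 mean, and at 10 it was within 1 log2 unit of the NADIR_180 mean. Of the 18, 7 overlapped a VEH peak, 8 a NADIR_180 peak and 2 a PEAK_140 peak, and at 8 both PEAK_140 libraries were at the floor. The nearest gene was RF00002, the family of 5.8S ribosomal RNA, at 6 of them and RF01518 at 1, all within 64.7 kb of chromosome 1. Ribosomal RNA genes are present in many near-identical copies, so reads there cannot be assigned to 1 copy and these values are uncertain.

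At the largest, chr1:11907458-11907607, PEAK_140 was at -0.10 and 0.14 and NADIR_180 at 5.63 and 5.37 (-5.48 ± 1.07, adjusted p = 0.00269). VEH was at 5.18 and 5.30, and the CONS_140 libraries at 2.38 and 6.53. The PEAK_140 libraries were therefore the low ones, below vehicle as well as below the nadir. A second such region (chr1:11909830-11909979) had -0.05 and 2.95 at PEAK_140, 5.22 and 5.16 at NADIR_180 and 4.99 and 4.87 in VEH (-3.74 ± 0.86). These 2 were the only regions of the 18 that were called without each library in turn.

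Among the other 11, the site near AABR07012587.1 had the widest spread, with -0.31 and 5.13 at PEAK_140, 6.64 and 5.70 at NADIR_180 and VEH at -0.55 and -0.75 (-3.76 ± 1.46, adjusted p = 0.0446). Its difference was -1.04 without PEAK_140 replicate 1 (adjusted p = 0.313), and it was called without PEAK_140 replicate 2 but not without either NADIR_180 library. The promoter of Slc39a8, a zinc and manganese importer, was at 2.64 and 2.58 at PEAK_140 and at 4.35 and 3.99 at NADIR_180 (-1.56 ± 0.47, adjusted p = 0.0168), with VEH at 3.39 and 2.98. At the promoter of Tifa, an adaptor of NF-kB signalling, PEAK_140 was at the floor and NADIR_180 at 2.32 and 1.93 (-2.60 ± 0.92), with VEH at -0.75 and 1.47. The remaining regions were near Parp16, Vezf1, AABR07034550.1, Pla2g3, Atp7b, RF00026, Il34 and AC141145.1, with differences of -3.31 to -1.82.

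A further group had PEAK_140 means of 4.16 to 5.63 and showed little or no loss. Among PEAK_140 peaks with a PEAK_140 mean above the median of such peaks, the 12 smallest differences ran from -1.68 to 0.30, and 11 of these regions passed the test of falling less than the median region. They included Snx6, a sorting nexin (4.23 and 4.18, then 4.53 and 4.24), an intron of Acsl5, an acyl-CoA synthetase (4.34 and 4.43, then 4.73 and 3.88), and 2 regions beside the 5.8S gene Rn5-8s (5.39 and 5.18, then 5.72 and 4.80 at the second). Vehicle was at a similar level at most of them, with 4.36 and 3.30 at Snx6, 3.92 and 3.76 at Acsl5 and 5.75 and 5.94 at Rn5-8s. The site near Nfia, a developmental transcription factor, had 4.42 and 5.06 followed by 4.73 and 4.76 and did not pass the test of falling less (adjusted p = 0.0602). The region with the lowest difference (-1.68), 4.45 kb before RF00002, is also 1 of the 18 called lower at PEAK_140. Regions near RF00002, RF01518 and Rn5-8s are among the 12, and their values are uncertain for the reason given above.

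The list of NADIR_180 peaks held 72 of the regions, of which 47 (65.3% of them) also overlapped a VEH peak and 25 did not. Of these 25, 6 also overlapped a PEAK_140 peak, and 18 had both PEAK_140 libraries at the floor. The sites near AABR07004100.2, AABR07034573.1 and Zfp788 belong to this group, and its other named members all had PEAK_140 replicate 1 below 0. An intron of Htr2a, a serotonin receptor gene, had 4.75 and 4.08 at NADIR_180, -0.37 and -0.15 at PEAK_140 and 4.94 and 3.80 in VEH. It did not pass the test of a difference (-4.68 ± 1.90, adjusted p = 0.0529).

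The size of the loss varied with the place of the region. Promoter regions had a median difference of 2.20 (333 regions, 43.8% called higher at PEAK_140), exons 2.48, transcription end sites 2.85, introns 3.28 and intergenic regions 3.29, of which 71.8% were called. By distance to the nearest gene start, the median was 2.19 up to 1 kb, 3.12 from 1 to 10 kb, 3.36 from 10 to 50 kb and 3.33 beyond. Promoter regions were also weaker at the peak, with a median PEAK_140 mean of 3.27 beside 3.78 over all regions. Among regions with a PEAK_140 mean over 5, promoters had 3.56 (62 regions), introns 4.12 (360) and intergenic regions 4.14 (466), so the order held with a smaller gap. These are counts and medians without a test, since regions are not replicates.

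**Figure D3:**
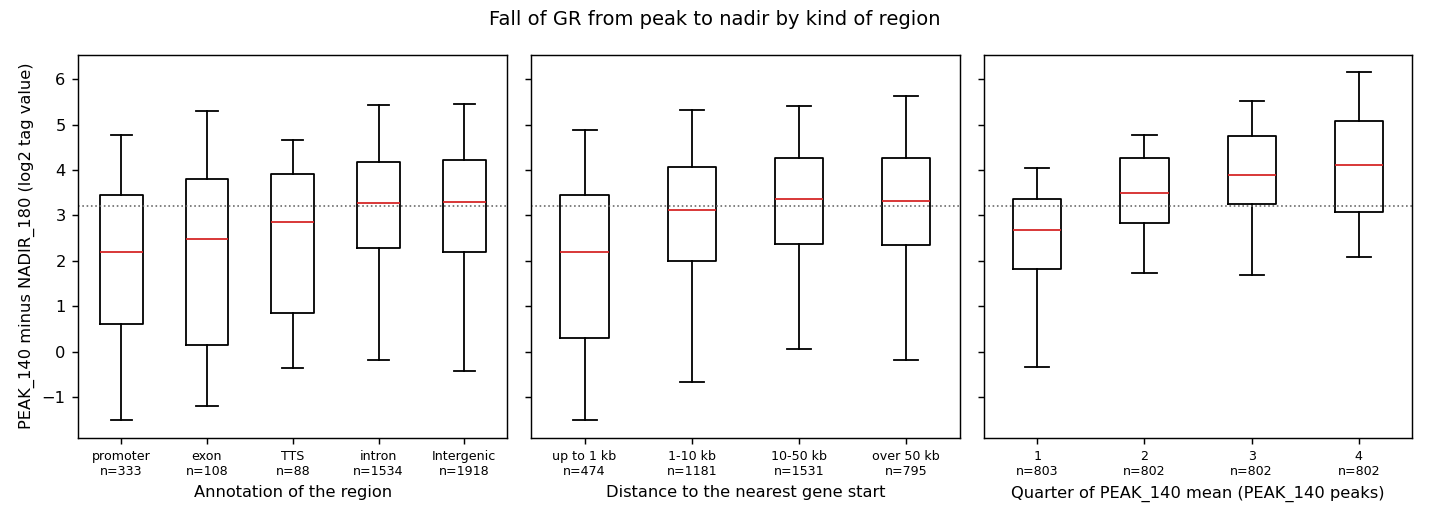
Difference between PEAK_140 and NADIR_180 (log2 tag value, y axis) by annotation, by distance to the nearest gene start and by 4 equal groups of the PEAK_140 mean, with boxes from the lower to the upper quartile, red medians and whiskers at percentiles 5 and 95. The dotted line is the median of all regions at 3.20, and promoters and regions up to 1 kb from a start lie below it at 2.20 and 2.19.

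Among the 3209 regions that overlap a PEAK_140 peak, the median difference was 2.68, 3.49, 3.90 and 4.11 in 4 equal groups from the weakest to the strongest PEAK_140 mean. The difference contains the PEAK_140 mean, so part of this order is given by how it is computed. The share of regions with neither NADIR_180 library at the floor was 16.1%, 18.7%, 30.2% and 55.7% in the same groups, so the strongest sites both lost the most on the log2 scale and most often had a signal left.

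The match to the GR element could be set beside the loss for the 1999 regions held by the study's motif table, as available here. That table is shortened and ordered by change, so the regions that it lacks are not a random part of all regions, and the classes are therefore described within bands of PEAK_140 mean and without a test. The element was matched on both strands in 246 regions, on 1 strand in 520 and not at all in 1233. At a PEAK_140 mean over 6, the median difference was 2.59 with both strands matched (50 regions), 3.04 with 1 (57), 3.63 with none (58) and 4.28 in the 227 regions that the table lacks. In regions with a PEAK_140 mean of 5 to 6 it was 3.51, 4.03 and 3.98, and from 4 to 5 it was 3.88, 3.95 and 3.78, with no order. Up to 4 it was 3.45 (84 regions), 3.30 (219) and 3.25 (571), in the opposite order to that over 6. The classes over 6 also differed in level. Their median PEAK_140 mean was 6.85 with both strands matched, 6.59 with 1, 6.41 with none and 6.51 in regions that the table lacks. Their median VEH mean was 2.04, 1.32, 1.33 and -0.43. Of the regions over 6 that fell more than the median region, 23 were among those that the table lacks.

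Of the 165 regions over 6 in the table, the 10 with the smallest falls had 7 elements matched on both strands, 2 on 1 strand and 1 with none, and the 10 with the largest falls had 0, 7 and 3. The order over 6 held without NADIR_180 replicate 1 (2.78, 3.13 and 4.12) and without replicate 2 (2.51, 2.74 and 3.20). Fkbp5, with 12 of 12 half-site letters, fell by 4.70 and Klf9, with no match, by 1.69, so single sites departed from the order in both directions.

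**Figure D4:**
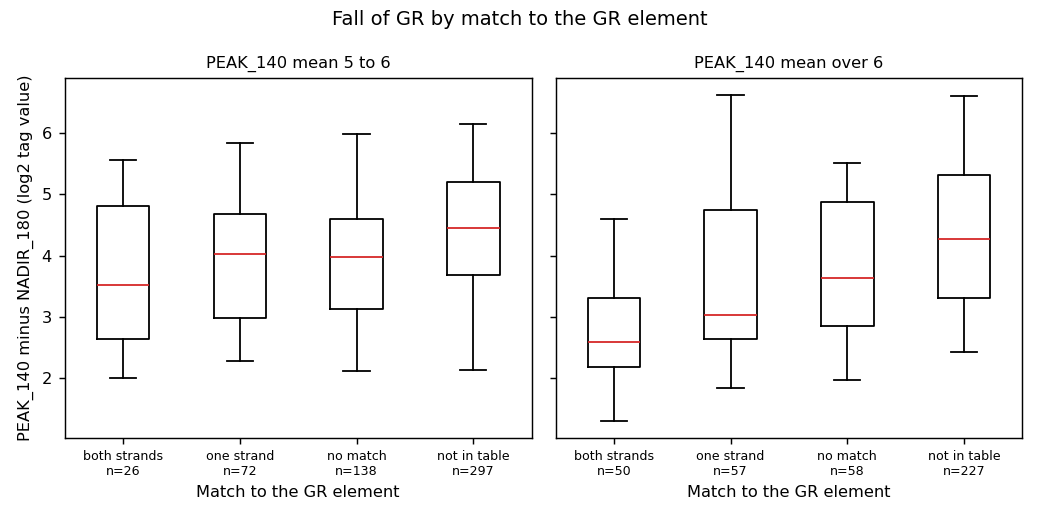
Difference between PEAK_140 and NADIR_180 (log2 tag value, y axis) by match to the GR element, for regions with a PEAK_140 mean of 5 to 6 (left) and over 6 (right), with boxes from the lower to the upper quartile, red medians and whiskers at percentiles 5 and 95. Over 6 the medians rise from 2.59 with both strands matched to 4.28 in regions that the motif table lacks.

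Strong GR sites directly at gene starts were few, with 53 of them (PEAK_140 mean over 5) within 400 bases of the start of 52 genes. The promoters of 4 of these genes, chosen after their values were seen because they span the range from kept to lost, are printed as the 250 bases before the RefSeq start (GRCr8, whose coordinates differ from those of the regions). Capitals mark ACANNNTGT, the core of the palindrome, which is its own reverse complement.
Kng1, chr11:91340149-91340398, minus strand: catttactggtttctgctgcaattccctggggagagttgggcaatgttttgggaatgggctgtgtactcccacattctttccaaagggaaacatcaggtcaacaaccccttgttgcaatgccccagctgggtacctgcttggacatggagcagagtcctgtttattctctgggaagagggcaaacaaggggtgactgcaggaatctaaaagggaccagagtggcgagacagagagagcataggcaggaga
Fga, chr2:170671919-170672168, plus strand: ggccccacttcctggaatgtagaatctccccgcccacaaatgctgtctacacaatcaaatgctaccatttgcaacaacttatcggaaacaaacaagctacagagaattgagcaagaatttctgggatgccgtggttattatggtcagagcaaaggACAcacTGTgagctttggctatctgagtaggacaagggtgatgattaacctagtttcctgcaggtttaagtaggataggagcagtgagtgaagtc
Upp2, chr3:63681576-63681825, plus strand: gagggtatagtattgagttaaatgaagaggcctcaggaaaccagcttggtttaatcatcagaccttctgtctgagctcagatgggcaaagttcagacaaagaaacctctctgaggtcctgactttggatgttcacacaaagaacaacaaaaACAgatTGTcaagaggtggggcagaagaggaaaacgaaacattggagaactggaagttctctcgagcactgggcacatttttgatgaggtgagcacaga
Apof, chr7:1284972-1285221, plus strand: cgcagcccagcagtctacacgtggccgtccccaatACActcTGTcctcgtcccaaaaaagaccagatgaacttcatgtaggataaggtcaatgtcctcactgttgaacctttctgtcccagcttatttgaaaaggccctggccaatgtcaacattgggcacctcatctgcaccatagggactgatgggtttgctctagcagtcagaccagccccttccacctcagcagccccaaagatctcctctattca
The core was found in 6 of the 30 such genes that matched a promoter by symbol (20%) and in 1943 of 33469 promoter windows of the same length (5.81%). The first share counts genes, which can have more than 1 window, and the second counts windows, so the shares are of unlike units. Of the 4 promoters printed, only that of Kng1 lacks the core, so they do not reflect its share among the 30. The study's 12-letter motif had no match at the Upp2 and Kng1 regions and was matched on 1 strand only at Apof. A match is a run of letters and not a bound site.

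Kng1, which encodes the precursor of bradykinin, kept the most GR of these 4 and has no core in the window printed above. Its region at the start went from 6.99 and 6.50 to 5.09 and 4.71 (1.85 ± 0.64, adjusted p = 0.0285), with VEH at -0.26 and 1.73, and its call was lost when any 1 of the 4 libraries was left out. Apof, an inhibitor of lipid transfer between lipoproteins, had 5.76 and 6.26, then 3.35 and 3.19, with VEH at 2.00 and 3.15 (2.74 ± 0.47). Fga, the alpha chain of fibrinogen, went from 6.28 and 5.39 to 1.52 and 1.02 (4.57 ± 0.55), and Upp2, a uridine phosphorylase, from 5.6 and 5.01 to 0.76 and -0.41 (5.12 ± 0.65). At the start of Agt, which encodes angiotensinogen and was also chosen after its values were seen, both nadir libraries were at the floor after 5.86 and 4.80 (5.99 ± 0.61).

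Across the 10 gene lists, the share of regions higher at PEAK_140 ran from 52.9% in the growth hormone, IGF and insulin axis to 77.8% in the circadian clock. The lists and their genes were chosen with earlier results of these data known, and their counts are read beside the 68.8% of all regions that were higher at PEAK_140, the 0.804% that fell more and the 4.62% that fell less. None of the 10 lists had a region called lower at PEAK_140.

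For gluconeogenesis and glucose output, 19 of 30 regions (63.3%) were higher, 1 fell less and the median was 3.18. The promoter of Pck1, the gene of the rate-limiting enzyme of gluconeogenesis, had 6.34 and 6.15 at PEAK_140 and 3.34 and -0.04 at NADIR_180 (chr3:171213210-171213872; 4.60 ± 0.93, adjusted p = 0.00313), with VEH at 2.85 and 1.72. The nadir libraries thus lay on either side of vehicle, and the difference was 2.91 without NADIR_180 replicate 2. Foxo3, a transcription factor held back by insulin, had 5.89 and 6.46, then 1.52 and -0.25 (5.54 ± 0.65). Near Ppp1r3c and Ppp1r3b, which encode subunits that direct a phosphatase to glycogen, the values were 7.37 and 6.92, then 3.64 and -0.05, and 6.99 and 6.41, then 5.04 and 3.18. The call near Ppp1r3b was lost without PEAK_140 replicate 1 and without NADIR_180 replicate 2.

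For amino acid breakdown and the urea cycle, 42 of 64 regions (65.6%) were higher, 1 fell more, 2 fell less and the median was 3.32. Got1, the cytosolic aspartate aminotransferase, had a strong promoter site with 7.11 and 7.93, then 4.56 and 3.91 (chr1:263269863-263270488; 3.29 ± 0.36, adjusted p = 0.000288). The site near Mat1a, which makes S-adenosylmethionine in liver, had 7.22 and 6.89, then 2.41 and 3.56, with VEH at -0.35 and -0.55 (4.07 ± 0.49). Ahcy, which removes the product of methylation, had 7.43 and 7.18, then 4.40 and 4.26 (2.98 ± 0.47). The site near Cps1, the entry enzyme of the urea cycle, had 6.60 and 6.71, then 4.11 and -0.05, and its difference of 4.62 was 2.54 without NADIR_180 replicate 2. The call of Cps1 was lost without that library and without either PEAK_140 library.

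For lipid and lipoprotein metabolism, 30 of 43 regions (69.8%) were higher, 2 fell more and the median was 3.31. Besides Insig1, the site near Lpin1, a phosphatidate phosphatase and coactivator, had 7.65 and 7.82, then 4.01 and 3.19, with VEH at -0.20 and -0.41 (chr6:41890042-41890667; 4.13 ± 0.38, adjusted p = 0.000228). Cpt1a, which admits fatty acids to mitochondria, had 6.52 and 5.99, then 2.70 and 2.27 (3.77 ± 0.72), and Scd, a desaturase, 6.01 and 5.87, then 2.90 and -0.33 (4.65 ± 0.91).

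Of the circadian clock and its output, 14 of 18 regions (77.8%) were higher and the median was 3.05. Besides Per1, intronic sites of Usp2 (6.71 and 6.04, then 3.33 and 1.80), Arntl, the core activator of the clock (6.17 and 6.07, then 3.64 and 2.29), and Rora, an activator of Arntl (6.08 and 5.30, then 3.74 and 1.76), were higher by 3.81, 3.15 and 2.94. The call of Rora was lost without either PEAK_140 library or NADIR_180 replicate 2. Per1 was thus the clock gene with the smallest difference among these 4.

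For liver transcription factors and nuclear receptors, 24 of 39 regions (61.5%) were higher, 1 fell less and the median was 3.09. Nr0b2, a repressor of bile acid synthesis genes, had 7.33 and 7.58, then 3.52 and 4.03 (3.68 ± 0.61). Nr1i2, the xenobiotic receptor PXR, had 7.0 and 6.69, then 3.78 and 3.74, with VEH at -0.26 and -0.47 (3.09 ± 0.37). Foxa1, a pioneer factor of liver, had 7.04 and 6.57, then 3.32 and 2.91, and Cebpa, a hepatocyte transcription factor, 6.42 and 6.53, then 3.31 and -0.25.

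For the growth hormone, IGF and insulin axis, 18 of 34 regions (52.9%) were higher and 1, the Igf1 site above, fell more, with a median of 2.90. Pik3r1, the regulatory subunit of PI3 kinase, had 7.10 and 6.68, then 1.55 and 1.78 (5.23 ± 0.45, adjusted p = 0.000217). Igfbp1, a binding protein of IGF, had 6.44 and 5.77, then 2.93 and 2.26 (3.51 ± 0.58). Socs2, which limits growth hormone signalling, was split at the nadir in the other direction from most sites, with replicate 1 at -0.44 and replicate 2 at 3.35 after 6.63 and 5.75.

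For plasma and acute phase proteins, 46 of 75 regions (61.3%) were higher, 1 fell less and the median was 3.08. C3, the central complement component, had 6.85 and 6.09, then 0.84 and 1.76 (5.17 ± 0.71). Orm1, an acute phase protein (6.61 and 5.94, then 3.48 and 2.91), and Fetub, a protease inhibitor (6.76 and 6.55, then 3.33 and 3.88), were higher by 3.08 and 3.05. For inflammation and signalling brakes, 23 of 33 regions (69.7%) were higher, 1 fell less and the median was 3.20. Il6r, the receptor of interleukin 6, had 7.65 and 7.64, then 4.76 and 3.90, and Zfp36, which destabilises inflammatory mRNAs, 7.20 and 6.98, then 4.77 and 3.90 (2.75 ± 0.34). The decoy receptor gene Il1r2 had 6.46 and 5.96, then 2.91 and 1.01.

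Of the GR machinery and corticosterone availability list, 7 of 10 regions were higher, with a median of 2.86. Besides Fkbp5, Hsd11b1, the enzyme that regenerates active glucocorticoid in liver, had 5.39 and 5.17, then 2.33 and -0.44 (4.34 ± 0.89). Akr1c1, an aldo-keto reductase (5.54 and 5.57, then 3.63 and 2.93) and Hspa8, a chaperone (3.43 and 2.75, then 1.29 and -0.60), were higher by 2.27 and 2.74, and each call was lost without either PEAK_140 library or NADIR_180 replicate 2.

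Genes with many GR sites showed how sites of 1 gene differ. Alb, the albumin gene, was nearest to 12 regions, whose differences ran from -3.45 to 5.09 with a median of 3.73, and 8 were called higher. Its 9 sites before the start were all above 0, and the strongest, 31 kb before the start (chr14:19222543-19223200), had 6.81 and 7.31, then 3.33 and 2.64. The 3 regions inside the gene had both PEAK_140 libraries between -0.83 and -0.38 and differences of -1.78, -0.96 and -3.45 with standard errors of over 2, and none was called. AABR07027072.1 was nearest to 11 regions, 10 of them called, with differences of 1.32 to 7.07.

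Zbtb16 was nearest to 9 regions and all 9 were called higher, with differences of 3.24 to 6.16 and a median of 5.18. Of 7 sites between 66.4 and 91.4 kb inside the gene, the one at 77.8 kb kept 4.02 and 3.20 at the nadir after 6.91 and 6.79, whereas the one at 86.0 kb went from 6.34 and 6.60 to 0.84 and -0.21 (6.16 ± 0.50). AABR07072667.1 was also nearest to 9 regions, 5 of them called. At Insig1, 7 of 8 regions were called, with 2 falling more than the median region, and only the region at its start was near the floor at both times. At Ass1, an enzyme of the urea cycle, 4 of 8 were called, which were the 3 sites 5.06 to 9.32 kb before the start and 1 inside the gene. Egfr, Sgms1, Slc45a1, Tsku and AABR07054619.1, each nearest to 8 regions, had 7, 6, 8, 5 and 6 called.

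Under constant CORT the same interval of time made little difference to GR. The median of CONS_140 minus CONS_180 was 0.15, and 0 regions were called in either direction by limma, with 194 at an unadjusted p under 0.05. The difference between the effects of time, pulsatile minus constant, had a median of 3.11 and was larger in 1735 regions (43.6%) and smaller in 16 (0.402%). Relative to the median region, these counts were 4 and 36. CONS_140 replicate 25, as it is labelled, was at the floor in 18.4% of regions and the other constant libraries in 1.73% to 5.12%.

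At Per1 the effect of time did not differ between infusions by this test. CONS_140 was at 8.21 and 7.84 and CONS_180 at 6.83 and 6.61, and the difference of the effects was 0.08 (adjusted p = 0.885). At Klf9 the constant values were 7.73 and 7.63, then 6.97 and 6.59 (0.79, adjusted p = 0.25), and at Cdkn1a 8.26 and 8.00, then 6.51 and 6.42 (0.93, adjusted p = 0.103). At Mt2A, in contrast, they were 7.17 and 7.50, then 7.06 and 6.70, and the pulsatile effect was larger by 2.24 (adjusted p = 0.011). At Tat they were 6.41 and 6.07, then 5.72 and 5.62, and the pulsatile effect was larger by 6.05 (adjusted p = 0.00396).

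**Figure D5:**
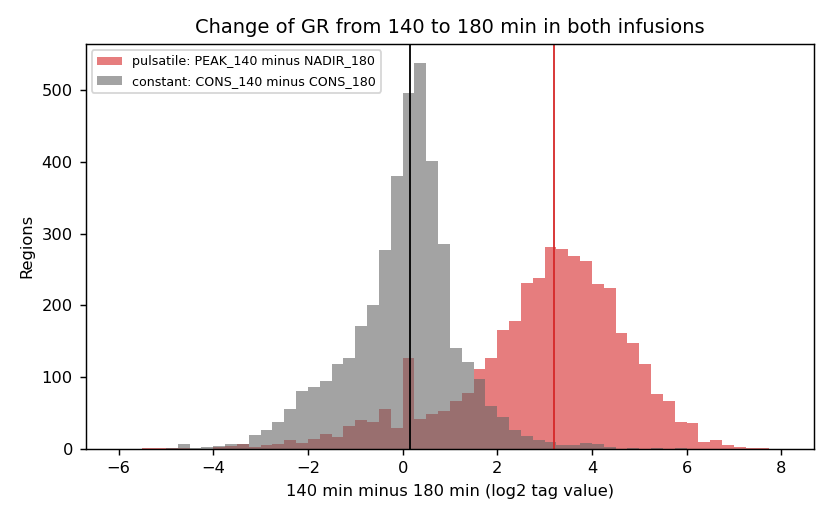
Number of GR regions (y axis) by the difference between 140 and 180 min (log2 tag value, x axis) under pulsatile (red) and constant (grey) CORT, with a vertical line at each median. The pulsatile median lies at 3.20 and the constant median at 0.15.

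Elongating polymerase at the nearest genes gave a second readout of the same times, in separate libraries. The methods describe chromatin of each pool being divided between the GR and Pol2 antibodies, so the readouts are not taken as coming from independent animals. Over all 16568 genes, pSer2 Pol2 was higher at PEAK_140 in 42 (0.254%) and lower in 35 (0.211%). Among the 1963 nearest genes of GR regions with a value, 37 were higher and 11 lower, with a median difference of -0.07, and after centring on the median these counts were 81 and 26. The 37 are 88.1% of the 42 genes that were higher and 1.88% of the nearest genes. Of 23 nearest genes of regions that fell more, 4 were higher and 0 lower, and of 118 nearest genes of regions that fell less, 4 were higher and 1 lower. The counts depended on single libraries, with 1 nearest gene called higher without PEAK_140 replicate 1 or without NADIR_180 replicate 1.

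Among the genes with a GR site described above, Zbtb16 had the largest difference, with pSer2 Pol2 at 9.77 and 9.73 at PEAK_140 and 5.21 and 2.89 at NADIR_180 (5.70 ± 0.63, adjusted p = 0.00301). Lpin1 had 11.24 and 10.95, then 6.57 and 6.22 (4.71 ± 0.47), and Insig1 10.62 and 10.84, then 7.61 and 7.49 (3.18 ± 0.27, adjusted p = 0.00248). Tsku (3.11), Got1 (3.11), Tsc22d3 (3.00), Agt (2.64), Upp2 (2.09) and Ass1 (2.04) were also higher, as were Mat1a (1.43), Cps1 (1.29) and Tat (1.28). At Tat the values were 12.80 and 12.56, then 11.37 and 11.44, so polymerase fell but stayed far above the median gene at 2.31. GR went to the floor at the strongest of the 6 regions nearest to Tat, and the others are not described here.

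Other genes with a GR site described above had no called difference in polymerase. Nedd4l had 6.84 and 6.98, then 7.24 and 6.98, Igf1 9.94 and 10.28, then 8.99 and 8.23 (1.5, adjusted p = 0.109), and Ece1 6.38 and 5.95, then 6.78 and 6.52. At Per1 the values were 7.17 and 6.76, then 6.38 and 5.52 (1.02, adjusted p = 1), and at As3mt 8.29 and 8.29, then 8.34 and 8.58. By list, beside the 1.88% of nearest genes and 0.254% of all genes that were higher, and with the same dependence on single libraries, amino acid breakdown and the urea cycle had 10 genes higher and 1 lower of 25, classical GR targets 3 of 15 higher, lipid and lipoprotein metabolism 2 higher and 1 lower of 24, and gluconeogenesis, plasma proteins and inflammation 1 higher each. The other lists had none called.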

How the data were processed

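GR and pSer2 Pol2 ChIP-Seq values were taken as log2 tag values deposited by the authors, 1 per region and library. Per the methods and file headers, reads were trimmed with Trimmomatic 0.36 and aligned to rn6 with bowtie2, and regions and tags were derived with HOMER 4.9.1, with input tags subtracted before normalization and a log-type transform. The headers scale to total tags, while the methods name tags within binding regions. Columns of the authors' own DESeq2 comparisons (fold changes and p-values) were not used, nor were the RNA-seq tables and the peak lists of constant CORT. Peak lists were joined to regions by an overlap of at least 1 base.

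Differences were fitted with limma 3.58.1 (R 4.3.3) over all 10 libraries of an assay in 5 groups, the VEH libraries of both times forming 1 group, with a variance trend and Benjamini-Hochberg adjustment over all regions. Regions were called at adjusted p under 0.05 and over 1.5-fold (0.585 on the log2 scale). The relative comparison subtracted each library's median first. A value counted as floor where it lay within 0.3 of the lowest value of the region, at least 2 libraries did so and that lowest value was under 0.25, a rule set after the values were seen. For Pol2, the region with the highest mean was used per gene. The limma fit was tested on simulated data with known changes. Libraries hold 2051977 to 6715803 tags, and no counts per region are given, so no counting interval was computed.

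Sites named include the 12 largest falls among regions called higher at PEAK_140 with both PEAK_140 libraries above both NADIR_180 libraries. All 18 regions lower at PEAK_140 are also named. So are the 12 smallest differences among PEAK_140 peaks with a PEAK_140 mean above the median of such peaks. The others are the strongest site of each classical target and of up to 4 genes of every other list, the genes with the most regions, and 12 NADIR_180 peaks without a VEH peak. The sites of As3mt, Kng1, Fga, Upp2, Apof and Agt were chosen after their values were seen. The regions compared and all gene lists were chosen with earlier results of these data known. Element sequences come from the study's motif table, as available here in a shortened form, and promoters from RefSeq (GRCr8), matched by symbol. Figures were drawn with matplotlib 3.10.9.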

Additional observations from a re-analysis of the deposited data

Results flagged for a closer look

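The effect of time on GR, 140 min against 180 min, differed between pulsatile and constant CORT at 54 of the 103 named sites, by the limma test of the difference itself (adjusted p under 0.05 and over 1.5-fold), beside 43.6% of all regions where it was larger under pulses and 0.402% where it was smaller. Many of these sites were named for their pulsatile difference, so their share is not independent of it. The values below are PEAK_140 minus NADIR_180, less CONS_140 minus CONS_180, on the log2 scale. At 49 sites the value was above 0.

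The widest differences between infusions were at the sites near Pmp2 (8.77), Igf1 (7.56), AC112030.1 (7.50), Nedd4l (7.38), RF00560 (7.26), B630019K06Rik (7.07), AABR07043012.1 (6.62), C3 (6.61), AABR07072515.1 (6.57), Insig1 (6.49), Ece1 (6.46), AABR07027072.1 (6.16) and Tat (6.05). These include most of the largest falls, and constant CORT held GR at nearly all of them at both times.

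Values between 4 and 6 were found near Cebpa (5.85), Bcl6 (5.75), Socs2 (5.54), Zbtb16 (5.53), Hsd11b1 (5.39), Agt (5.18), Nfkbia (5.11), Foxo3 (5.09), Ppp1r3c (5.07), Fga (5.04), Foxa1 (4.99), Relt (4.93), Scd (4.79), Upp2 (4.67), Pik3r1 (4.52), Il1r2 (4.48), Fkbp5 (4.36), Mat1a (4.29), Lpin1 (4.14) and Ddit4 (4.00).

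Smaller values, below 4, were found near Alb (3.84), Pck1 (3.70), Igfbp1 (3.15), Usp2 (3.12), Fetub (3.05), Nr0b2 (2.98), Il6r (2.82), Nr1i2 (2.53), Apof (2.46), Ahcy (2.44), Got1 (2.39), Arntl (2.32), Orm1 (2.29), Mt2A (2.24), Zfp36 (1.49) and AABR07004100.2 (1.08). Per1, Klf9, Cdkn1a, As3mt, AABR07034573.1 and Zfp788 were not among the sites that differed.

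At 5 sites the value was below 0, all of them called lower at PEAK_140 than at NADIR_180. These were 2 sites near RF00002, 3.31 kb before (-3.80) and 1.71 kb after its start (-3.96), and those near Tifa (-4.29), Il34 (-2.97) and Slc39a8 (-2.54). No group of 4 to 10 samples was available for a search for single aberrant libraries.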

How the results depend on the processing

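The libraries are pools with 2 per group, and where 1 is left out, the lone library of that group is assumed to vary like the others. Of 988 values of the 103 named sites under the alternatives, 852 kept their direction and their side of the threshold, 115 were no longer called, 7 became called and 14 changed sign, and 31 sites lost a call at least once. Of 497 values relative to the median region at 43 sites, 401 kept theirs and 96 were no longer called.

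The count higher at PEAK_140 (2739) was 253 after quantile normalization, 136 after centring on the 75th percentile, 32 after centring on the median, 1637 in regions above the median by mean, 692 in regions with no NADIR_180 library at the floor and 1800 at adjusted p under 0.01, and from 1726 to 2605 without single libraries. The count lower (18) was 38 with only the 4 pulsatile libraries, 216, 183 and 184 under the same 3 scalings, 3 at adjusted p under 0.01 and 6 to 18 without single libraries, the 6 being without NADIR_180 replicate 1. The median difference of 3.20 became 0.06 after quantile normalization and 0.10 after centring on the 75th percentile, as those scalings remove a shared shift, and ran from 2.66 to 3.65 without single libraries.

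Relative to the median region, the count that fell more (32) was 50 without VEH, 15 with no variance trend, 253 after quantile normalization, 136 on the 75th percentile, 67 in regions above the median by mean, 0 with no nadir library at the floor and 2 at adjusted p under 0.01, and 0 to 227 without single libraries. The count that fell less (184) was 50 at adjusted p under 0.01 and 14 to 223 without single libraries. The causes were not tested. In regions above the median by mean, the median differences were 3.17 for exons, 2.98 for promoters, 2.98 up to 1 kb from a start and -2.26 for NADIR_180 and VEH peaks. After centring on the median, the time effect was larger under pulses in 4 regions and smaller in 36. For Pol2 at nearest genes, centring gave 81 higher and 26 lower, and leaving out single libraries 1 to 21 higher and 0 to 8 lower by limma. The GR element medians without single NADIR_180 libraries were added after seeing the data.

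Signs changed without single libraries at sites with a difference near 0 or a wide spread. The values ran from -1.30 to 0.08 at RF00002, 0.09 kb before its start, from -0.35 to 0.04 at RF01518, from -0.32 to 0.32 at Nfia, from -0.43 to 0.49 at Rn5-8s, from -0.11 to 0.22 at AABR07015042.1, from -0.35 to 0.50 at Acsl5, from -0.10 to 0.69 at Sybu, from -3.32 to 1.40 at AABR07015078.1, from -3.47 to 0.85 at LOC100910308, from -2.89 to 0.86 at AABR07073024.1 and from -3.30 to 0.11 at Gucy1a2.

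The replicate numbers gave no sign of a pairing, as deviations of same-numbered libraries correlated by -0.021, 0.024 and -0.027 across regions. With 2 libraries a group, this cannot exclude that same-numbered libraries were handled together. A replicate block over PEAK_140, NADIR_180 and CONS_180 gave 2792 regions higher, 29 lower, 101 that fell more and 359 that fell less.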
